A study of Homo sapiens with 60 samples.

Results

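The 10 genes described here encode the aldo-keto reductases AKR1A1, AKR1B1, AKR1B10, AKR1C1, AKR1C2, AKR1C3 and AKR7A2, the carbonyl reductases CBR1 and CBR3, and the quinone reductase NQO1. They were chosen as named enzymes of anthracycline and carbonyl reduction, by symbol, with all of their probe sets. Of the 10, 8 were measured here by 17 probe sets with a single gene symbol, among 19775 genes in all; AKR1A1 and AKR1B1 were not analysed here. RNA was measured on 60 Affymetrix U133 Plus 2 arrays from 3 human breast cell lines. HB4a cells come from normal breast epithelium. C5.2 cells are HB4a carrying a transfected HER-2 cDNA, and SKBR3 cells are a mammary adenocarcinoma with HER-2 overexpression, ERBB2 being the gene of that growth factor receptor. In each line, cells were given DMSO as vehicle, 30 nM doxorubicin, 20 nM rapamycin, or the pair of drugs at the same doses. The 12 groups held 5 arrays each, from independent experiments numbered 1, 2, 3, 4 and 6. HB4a and C5.2 were grown with insulin and hydrocortisone and SKBR3 was not, so the medium cannot be told apart from the line in comparisons with SKBR3. No treatment time or scan date was given, so any array batch cannot be told apart from the line.

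Doxorubicin is an anthracycline, a quinone drug that traps topoisomerase II on DNA. Its side-chain ketone is reduced to the alcohol doxorubicinol, a weaker poison of tumour cells, by NADPH-dependent reductases, chiefly carbonyl reductases and several aldo-keto reductases. NQO1 reduces quinone rings. AKR1B10, the AKR1C enzymes and NQO1 are textbook targets of the oxidative stress factor NRF2. Rapamycin inhibits the kinase complex mTORC1.

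The AKR1C genes lie side by side on chromosome 10 and arose by duplication. The 250 bases before each start site are given to show how alike the copies are. The probe sets of AKR1C1 and AKR1C2 cannot separate these genes, and any part of the windows in their values was not tested. Sequences and positions are those of RefSeq on GRCh38.p14, and capitals mark the longest stretch that all 4 windows share. AKR1C3 has a pair of start sites in that table.
AKR1C1, chr10:4963165-4963414, plus strand: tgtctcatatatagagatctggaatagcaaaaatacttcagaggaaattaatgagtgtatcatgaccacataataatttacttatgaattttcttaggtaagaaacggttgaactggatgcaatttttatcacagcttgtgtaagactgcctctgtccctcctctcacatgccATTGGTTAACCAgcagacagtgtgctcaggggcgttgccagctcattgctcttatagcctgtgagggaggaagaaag
AKR1C2, chr10:5003858-5004107, minus strand: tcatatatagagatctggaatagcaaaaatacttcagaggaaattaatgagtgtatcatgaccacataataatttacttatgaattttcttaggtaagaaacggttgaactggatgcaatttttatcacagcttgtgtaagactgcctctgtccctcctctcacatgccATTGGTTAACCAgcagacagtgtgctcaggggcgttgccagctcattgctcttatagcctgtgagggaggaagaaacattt
AKR1C3 site 1, chr10:5048531-5048780, plus strand: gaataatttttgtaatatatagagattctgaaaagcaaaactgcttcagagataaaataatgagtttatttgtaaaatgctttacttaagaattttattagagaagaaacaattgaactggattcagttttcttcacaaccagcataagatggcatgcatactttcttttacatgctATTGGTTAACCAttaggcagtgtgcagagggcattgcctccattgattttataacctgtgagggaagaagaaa
AKR1C3 site 2, chr10:5094164-5094413, plus strand: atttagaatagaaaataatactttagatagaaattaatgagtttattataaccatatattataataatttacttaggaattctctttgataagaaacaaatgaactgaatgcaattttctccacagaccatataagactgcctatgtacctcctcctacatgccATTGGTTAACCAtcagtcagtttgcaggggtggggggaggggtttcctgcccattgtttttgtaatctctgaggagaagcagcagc
The AKR1C1 and AKR1C2 windows were identical at 245 of 246 aligned bases (99.6%). AKR1C3 site 1 matched AKR1C1 at 188 of 240 aligned bases (78.3%) and AKR1C2 at 78.8%. The shared stretch ATTGGTTAACCA of 12 bases began 77 bases before the AKR1C1 start, 81 before AKR1C2, and 73 and 86 before the AKR1C3 sites. On either strand it occurred in the windows of 3 of 27305 genes (0.011%). Those 3 are AKR1C1, AKR1C2 and AKR1C3, from which the stretch was picked, so the share is no independent measure of its rarity. The core of the antioxidant response element, TGACNNNGC, which NRF2 binds with a small MAF partner, was searched on both strands and occurred in 11.0% of the 27305 genes' windows. AKR1B10 and CBR3 had no window in that table and were not searched. Of the 8 genes of the set with a window, AKR1A1 and AKR1B1 among them, AKR7A2 held 3 matches and CBR1 held 1 (GCAAAGTCA, 159 bases before the start). The AP-1 motif TGANTCA, found in 6.6% of genes' windows, matched in none of the 8. Only the 250 bases before each start were searched, so an element further away would be missed in any gene. A match is a description of letters and not a site.

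Values are log2 probe set levels, so a difference of 1 is a doubling. Each gene is given by its brightest probe set. A value at or under its array's median, which lay between 1.41 and 1.71 on the 60 arrays, was taken as background. Genes were tested where they passed log2 5 on at least 5 arrays of a fit, and called at an adjusted p under 0.05 over all genes tested. Of the 8 measured genes, 8 passed in C5.2, 5 in HB4a (not AKR1C1, AKR1C2 or AKR1C3) and 6 in SKBR3 (not AKR1B10 or AKR1C3). AKR1C1 and AKR1C2 are counted separately in all counts below, though their probe sets cannot separate them. In HB4a, AKR1B10 had 5 doxorubicin arrays and 1 array of both drugs above the filter. In SKBR3, only the 5 doxorubicin arrays carried AKR1C1 and AKR1C2 past it. Calls of such genes follow in part from the filter, so their adjusted p from a fit without a filter, over all 19775 genes, is given as well. For some differences between lines the highest adjusted p over other settings, that fit among them, is given instead. As checks of the labels, CDKN1A, a p53 target, rose by 1.75 ± 0.16 (SE) with doxorubicin in HB4a and by 2.14 ± 0.20 in C5.2, and ERBB2 was higher in C5.2 than in HB4a by 5.38; CDKN1A did not pass the filter in SKBR3. Luminal markers were above log2 5 for 6 of 6 genes in HB4a and C5.2 and for 4 or 5 of 6 in SKBR3. Leukocyte and endothelial markers were above it for 0 of 2 and 0 of 3 measured genes in every group. On SKBR3 vehicle array 3 the summed level of 4 mesenchymal markers was 5.50, against 4.24 to 4.88 on the other 4 vehicle arrays; calls that fail without that array are named below.

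**Figure D1:**
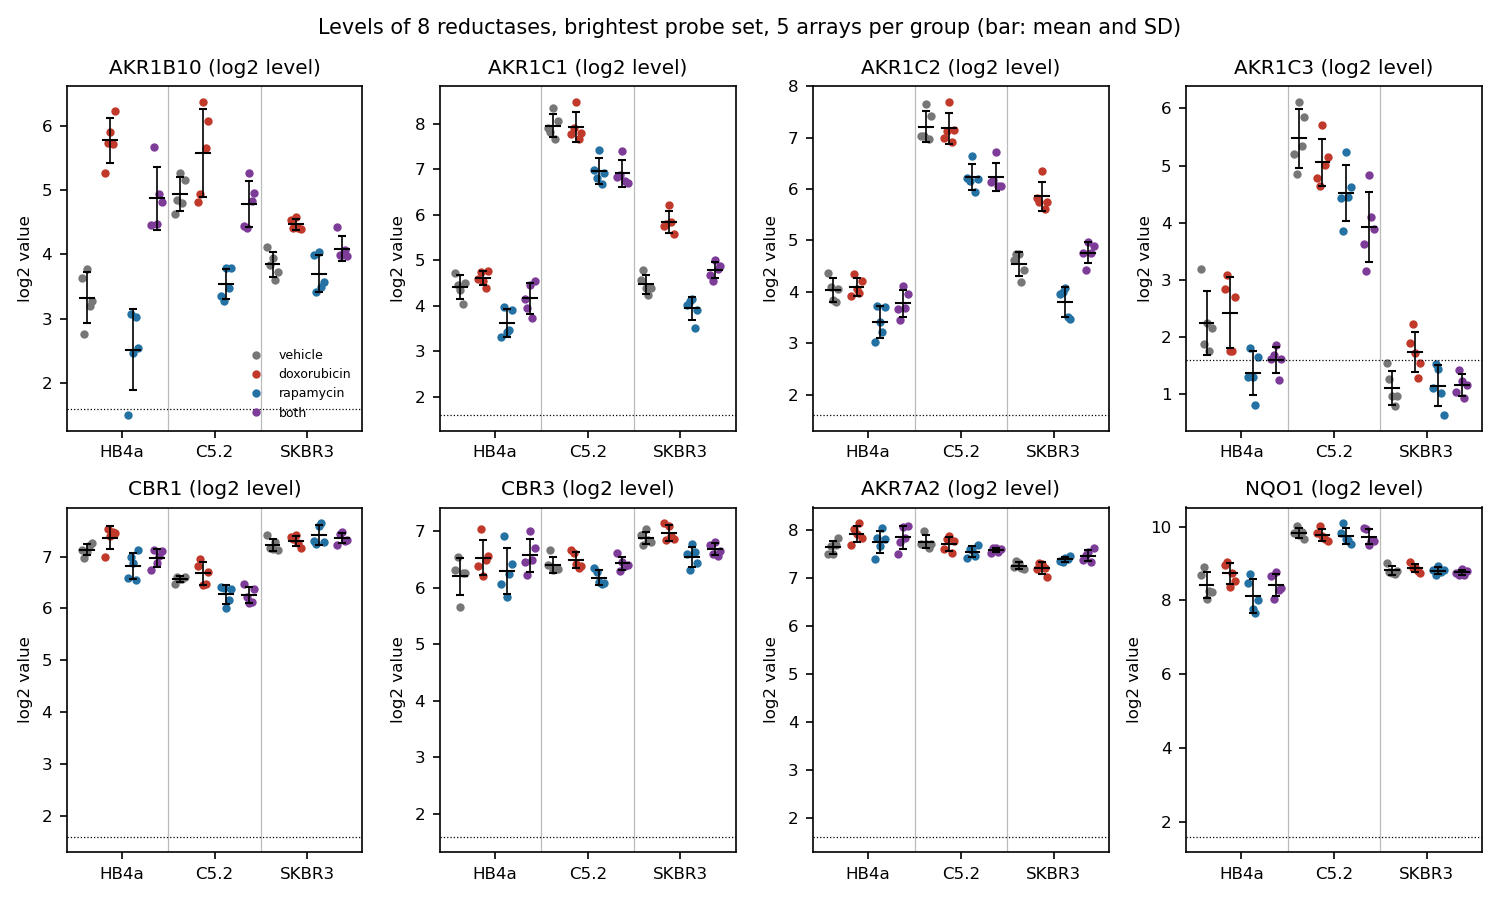
Log2 level (y axis) of the 8 measured reductases in HB4a, C5.2 and SKBR3 (x axis), 1 point per array coloured by treatment, with the mean and SD over 5 arrays; the dotted line is the median of the array medians. AKR1C1 and AKR1C2 lie near log2 7 to 8 in C5.2 vehicle and near 4 to 5 in HB4a and SKBR3 vehicle, while CBR1, CBR3, AKR7A2 and NQO1 move little with treatment.

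These are bulk samples, in which fewer cells with a transcript and less of it per cell cannot be told apart. The 3 lines differed most in the AKR1C genes, which were higher in C5.2 than in both other lines. AKR1C1, a hydroxysteroid dehydrogenase that inactivates progesterone, stood at 7.90, 7.81, 8.35, 7.67 and 8.05 in C5.2 vehicle (experiments 1, 2, 3, 4 and 6). It stood at 4.73, 4.45, 4.35, 4.04 and 4.50 in HB4a and at 4.57, 4.78, 4.39, 4.23 and 4.39 in SKBR3. Every C5.2 array was above every array of the other lines, and the other lines overlapped. The AKR1C1 difference was 3.54 ± 0.17 (SE) between C5.2 and HB4a (11.6-fold, adjusted p = 8.35e-20), and SKBR3 was below C5.2 with a difference of -3.48 ± 0.16 (adjusted p = 1.81e-21). Between SKBR3 and HB4a it was 0.06 ± 0.16 (adjusted p = 0.745), with groups that overlapped. In the fit of C5.2 and HB4a, AKR1C1 and AKR1C2 passed the filter only through C5.2 arrays, the high group. Over 11 other settings, no filter among them, the adjusted p of C5.2 against HB4a was up to 1.79e-11 for AKR1C1 and 1.09e-10 for AKR1C2. AKR1C2, which inactivates dihydrotestosterone, averaged 7.21 ± 0.30 (SD, n = 5) in C5.2, 4.54 ± 0.23 in SKBR3 and 4.03 ± 0.23 in HB4a. On this brightest set all 3 AKR1C2 differences were called, at 3.18 ± 0.17 for C5.2 over HB4a, -2.67 ± 0.17 for SKBR3 against C5.2 and 0.51 ± 0.16 for SKBR3 over HB4a (adjusted p = 0.00578 without a filter, which only the SKBR3 doxorubicin arrays passed in that fit). The last was not seen on the other bright AKR1C2 set, 211653_x_at, which averaged 3.14 in SKBR3 and 3.13 in HB4a vehicle.

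AKR1C3, which also makes testosterone and prostaglandin F, stood at 5.21, 4.84, 6.12, 5.35 and 5.86 in C5.2 vehicle and at 3.19, 1.89, 2.24, 1.75 and 2.15 in HB4a. In SKBR3 it was 1.55, 1.27, 0.98, 0.79 and 0.98, at background on 4 of the 5 arrays. The C5.2 arrays were again apart from all others, and the C5.2 excess over HB4a was 3.23 ± 0.30 (adjusted p = 1.5e-11). Only C5.2 arrays passed the filter there, and over 10 other settings, no filter among them, the adjusted p was up to 2.47e-11. Against the SKBR3 background level AKR1C3 was at least 15.6-fold higher in C5.2, and at least 1.66-fold higher in HB4a. AKR1B10, a reductase of retinal and other aldehydes, averaged 4.94 ± 0.27 in C5.2, 3.85 ± 0.19 in SKBR3 and 3.33 ± 0.40 in HB4a. C5.2 exceeded HB4a by 1.61 ± 0.27 (adjusted p = 6.09e-06) and SKBR3 differed from C5.2 by -1.10 ± 0.21 (adjusted p = 9.77e-06). In the fit of SKBR3 and C5.2 only C5.2 arrays passed the filter. Over 10 other settings, no filter among them, the adjusted p of that difference was up to 1.26e-04. The SKBR3 excess of AKR1B10 over HB4a, 0.52 ± 0.23 (adjusted p = 0.0373), failed without any 1 of 6 arrays (HB4a vehicle 2, 4 or 6, SKBR3 vehicle 1, 2 or 3; adjusted p up to 0.143) and with the experiments as a random block (0.0929). The call held without a filter, which AKR1B10 passed in that fit only through treated HB4a arrays.

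NQO1 was also highest in C5.2, at 9.82 ± 0.13 (SD, n = 5), against 8.81 ± 0.12 in SKBR3 and 8.42 ± 0.36 in HB4a. C5.2 exceeded HB4a by 1.41 ± 0.17 (adjusted p = 6.94e-09), and SKBR3 differed from C5.2 by -1.01 ± 0.09. The SKBR3 excess of NQO1 over HB4a, 0.39 ± 0.16 (adjusted p = 0.0236), failed without HB4a vehicle array 3, 4 or 6 or SKBR3 vehicle array 1 (adjusted p up to 0.0978). CBR1, the main carbonyl reductase of doxorubicin in many tissues, ran the other way. It stood at 6.46, 6.60, 6.56, 6.57 and 6.61 in C5.2 and averaged 7.13 ± 0.11 in HB4a and 7.23 ± 0.12 in SKBR3. No C5.2 array of CBR1 reached the other lines, with differences of -0.57 ± 0.12 from HB4a (adjusted p = 1.12e-04) and 0.67 ± 0.10 for SKBR3 over C5.2. CBR3, its close relative, was higher in SKBR3 than in HB4a by 0.67 ± 0.16 and than in C5.2 by 0.47 ± 0.09. AKR7A2, which reduces succinic semialdehyde, was lower in SKBR3, by -0.38 ± 0.10 from HB4a and -0.50 ± 0.08 from C5.2, on its brightest probe set 214259_s_at. The first of these fell to -0.21 and was not called after array centring (adjusted p = 0.0819). On its other probe set, 202139_at, the same differences were -0.10 and -0.01 and were not called.

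For C5.2 against HB4a, 5 of 8 tested genes of the set were higher and 1 lower, where 49.2% of all genes tested were called and 29.3% were higher. For SKBR3 against HB4a, 4 of 7 were higher and 1 lower (77.3% of all genes called, 37.6% higher), and for SKBR3 against C5.2 2 were higher and 6 lower of 8 (78.8% called, 36.2% higher). AKR1C2, whose other bright set showed no excess in SKBR3 over HB4a, is among those 4. The median over the 8 genes was 1.51 for C5.2 against HB4a, beside 0.10 over all genes tested. Centring the arrays would remove a shift of -0.173 from SKBR3 against HB4a and -0.123 from SKBR3 against C5.2. Markers moved with the lines too. The summed level of 4 mesenchymal markers was 12.03 to 12.43 in C5.2 vehicle, 9.74 to 10.3 in HB4a and 4.24 to 5.50 in SKBR3, where 2 of 4 were at background. That of 6 luminal markers was 11.0 to 11.5, 12.5 to 12.8 and 13.15 to 13.28 in the same order, and that of 4 measured basal markers 7.01 to 8.17, 10.3 to 10.7 and 3.86 to 4.79. Their part in these differences was not tested.

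In the main fit doxorubicin gave calls for AKR1B10 in HB4a, for AKR1C1 and AKR1C2 in SKBR3 and for none in C5.2. AKR1B10 was higher than vehicle in 5 of 5 experiments in each line. In HB4a doxorubicin raised AKR1B10. It stood at 3.63, 2.76, 3.77, 3.21 and 3.27 with vehicle and at 5.26, 5.74, 5.91, 5.72 and 6.23 with doxorubicin. All 5 treated arrays lay above all vehicle arrays, and the rise was 2.44 ± 0.29 (5.44-fold, adjusted p = 7.88e-06; 8.1e-06 without a filter). This was 1 of the 5 genes tested in HB4a, where 11.4% of all genes were called and 8.66% rose. The summed basal markers lay at 10.1 to 10.4 with doxorubicin and 10.3 to 10.7 with vehicle, and the luminal markers at 12.4 to 12.6 and 12.5 to 12.8; their part in the result was not tested. AKR1C1 (0.19 ± 0.17), AKR1C2 (0.07 ± 0.16) and AKR1C3 (0.19 ± 0.27) had groups that overlapped and adjusted p values of 0.656 to 0.891 without a filter. The differences of CBR1, CBR3, AKR7A2 and NQO1 in HB4a lay between 0.23 and 0.33, with adjusted p values of 0.163 to 0.357. Of these, AKR7A2 (0.29) was called with the experiment number as a block (adjusted p = 0.0199), which called 32.7% of all genes.

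In SKBR3 doxorubicin raised AKR1C1 and AKR1C2. AKR1C1 went from 4.57, 4.78, 4.39, 4.23 and 4.39 with vehicle to 5.74, 5.80, 6.22, 5.83 and 5.57. AKR1C2 went from 4.63, 4.74, 4.73, 4.19 and 4.42 to 5.83, 5.75, 6.35, 5.61 and 5.74. In both genes every doxorubicin array was above every vehicle array by more than the spread of either group. The rise was 1.36 ± 0.15 for AKR1C1 (2.57-fold, adjusted p = 1.15e-05) and 1.32 ± 0.17 for AKR1C2 (2.49-fold, adjusted p = 6.02e-05). Without a filter the adjusted p values were 5.96e-06 and 3.35e-05. Few genes moved in that comparison: 50 of 5977 genes tested were called (0.837%), 0.669% up. AKR1B10 in SKBR3 went from 4.11, 3.83, 3.94, 3.61 and 3.73 to 4.54, 4.42, 4.58, 4.41 and 4.40, with no overlap. Its difference of 0.62 ± 0.14 was called without a filter (adjusted p = 0.0406; 0.384% of all genes rose there), but failed without any 1 of 9 of the 10 arrays, all but vehicle array 1 (adjusted p up to 0.171). On all arrays, the AKR1B10 difference in that fit had an adjusted p of 6.47e-04 with the block. It was not called with all 60 arrays in 1 fit or after quantile normalization (adjusted p up to 0.515). AKR1C3 in SKBR3 doxorubicin averaged 1.74, at least 1.17-fold over the background level of vehicle (adjusted p = 0.199, and 0.00521 with the block, under which 1.92% of all genes were called). CBR1, CBR3, AKR7A2 and NQO1 differed by -0.05 to 0.09.

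In C5.2, where AKR1C1 and AKR1C2 were already high, doxorubicin left them at differences of -0.03 ± 0.17 and -0.04 ± 0.17. AKR1C1 was 7.76, 7.89, 8.48, 7.66 and 7.80 with doxorubicin, overlapping the vehicle arrays. AKR1B10 was 4.81, 4.94, 6.37, 5.65 and 6.08, higher than vehicle in 5 of 5 experiments, by 0.09 to 1.10. The C5.2 groups of AKR1B10 overlapped. The difference of 0.63 ± 0.25 was not called in the main fit (adjusted p = 0.234) and was called with the block (0.00398). AKR1C3 differed by -0.42 ± 0.30, lower in 5 of 5 experiments, and was likewise called with the block and not in the main fit (0.0102 and 0.602). In the main fit 0 of 8 genes of the set were called in limma, where 3.26% of all genes were (17.4% with the block). AKR1B10 was the 1 with an unadjusted p under 0.05. With array weights 1 gene of the set was called.

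**Figure D2:**
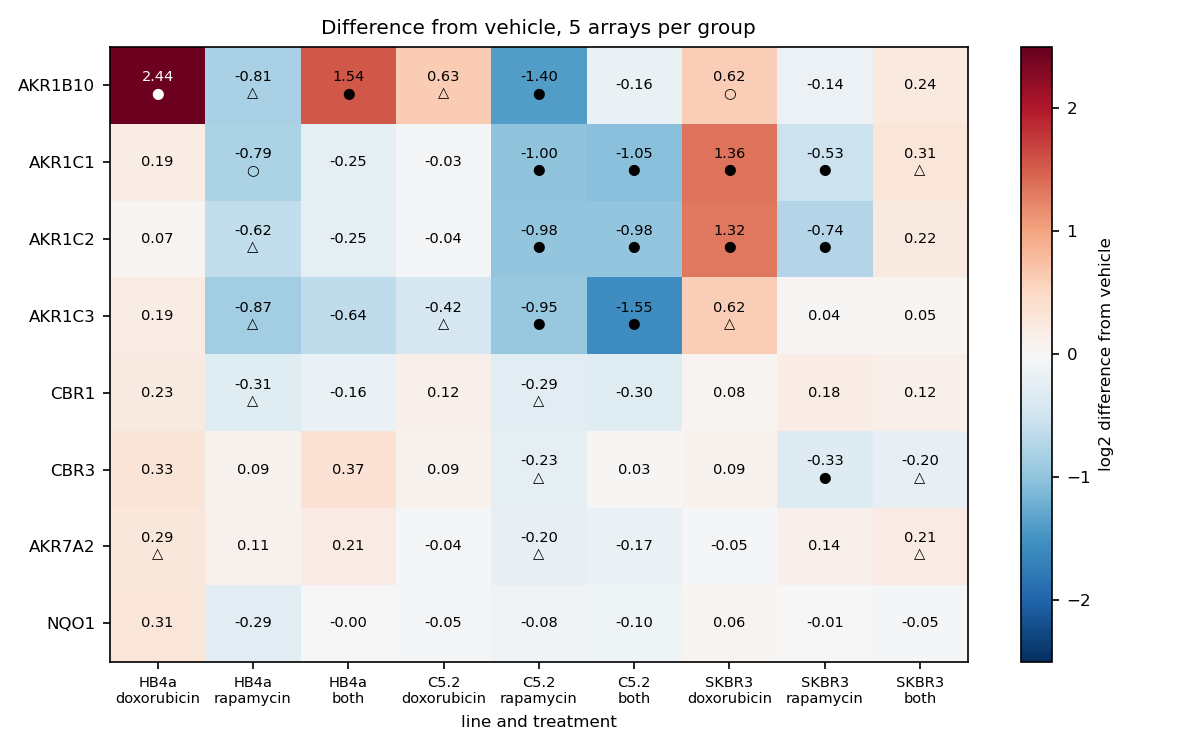
Log2 difference from the vehicle of the same line (colour and printed value, 5 arrays per group) for 8 reductases (rows) under each line and treatment (columns). A filled circle marks a call, and an open circle a call only in the fit without a filter for a gene below the filter. A triangle marks a call with the experiment number as a block and none in the main fit, where the numbers paired the arrays. AKR1B10 in HB4a doxorubicin (2.44) and AKR1C1 and AKR1C2 in SKBR3 doxorubicin (1.36 and 1.32) stand out in red.

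In C5.2 rapamycin lowered AKR1B10, AKR1C1, AKR1C2 and AKR1C3. AKR1B10 went to 3.36, 3.28, 3.79, 3.48 and 3.79 from vehicle values of 4.63, 4.85, 5.27, 4.80 and 5.16. AKR1C1 went to 6.97, 6.82, 7.42, 6.67 and 6.92, and AKR1C2 to 6.22, 6.15, 6.63, 5.94 and 6.20. None of the rapamycin arrays of these 3 genes reached the lowest vehicle array. The differences were -1.40 ± 0.25 for AKR1B10 (adjusted p = 0.00112; 0.0017 without a filter), -0.996 ± 0.17 for AKR1C1 (adjusted p = 8.02e-04) and -0.98 ± 0.17 for AKR1C2 (adjusted p = 8.02e-04). AKR1C3 stood at 4.43, 3.86, 5.23, 4.46 and 4.63, lower than vehicle in 5 of 5 experiments though the groups overlapped. Its difference of -0.95 ± 0.30 (adjusted p = 0.033) failed without a filter (0.0633) and without any 1 of 6 arrays (vehicle 3, 4 or 6, rapamycin 1, 2 or 4; adjusted p up to 0.0875). The 4 falls among 8 genes of the set, AKR1C1 and AKR1C2 counted separately, stand beside 17.4% of all genes called and 14.6% that fell. The medians were -0.62 over the 8 genes and -0.08 over all genes tested. In the same C5.2 groups the summed basal markers lay at 6.46 to 7.38 with rapamycin and 7.01 to 8.17 with vehicle, and the luminal markers at 10.6 to 11.3 and 11.0 to 11.5; their part in the result was not tested.

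In C5.2 with rapamycin the carbonyl reductases CBR1 and CBR3 differed by -0.29 ± 0.11 and -0.23 ± 0.09, and the aldo-keto reductase AKR7A2 by -0.20 ± 0.08, each lower in 5 of 5 experiments. These 3 were called with the block (adjusted p = 0.00767, 0.013 and 0.0108) and not in the main fit (0.075, 0.094 and 0.101). That makes 7 of 8 genes with the block, under which 31.7% of all genes fell. NQO1 differed by -0.08 ± 0.11, and its groups overlapped.

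In SKBR3 rapamycin lowered AKR1C1, AKR1C2 and CBR3. AKR1C1 stood at 4.02, 4.11, 4.16, 3.51 and 3.91, below every vehicle array, with a difference of -0.53 ± 0.15 (adjusted p = 0.0161; 0.0299 without a filter). Without rapamycin array 4 it was -0.42 (adjusted p = 0.0507). AKR1C2 fell by 0.74 ± 0.17 on the log2 scale (adjusted p = 0.00324; 0.00531 without a filter), to 3.96, 3.99, 4.08, 3.52 and 3.47, again with no overlap. CBR3 went from 6.93, 6.76, 7.04, 6.84 and 6.81 to 6.59, 6.32, 6.78, 6.64 and 6.44, lower in 5 of 5 experiments with groups that overlapped in 1 array. The CBR3 difference was -0.33 ± 0.10 (adjusted p = 0.022); it failed without a filter (0.0681) and without rapamycin array 2 or 6 or vehicle array 3 (adjusted p up to 0.069). These are 3 of 6 tested genes, beside 18.3% of all genes called and 10.8% that fell. AKR1B10 (-0.14 ± 0.14) and AKR1C3 (0.04 ± 0.18, at background) had no call.

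In HB4a rapamycin 0 of the 5 tested genes were called in limma, where 3.18% of all genes were; 2 (AKR1B10 and CBR1) had an unadjusted p under 0.05. AKR1C1 stood at 3.32, 3.98, 3.42, 3.47 and 3.92 and AKR1C2 at 3.02, 3.71, 3.41, 3.21 and 3.70, both below every vehicle array. Without a filter the AKR1C1 difference of -0.79 ± 0.17 was called (adjusted p = 0.0217, where 0.41% of all genes fell; up to 0.0725 when rapamycin array 1, 3 or 4 or vehicle array 1, 2 or 6 was left out) and the AKR1C2 difference of -0.62 ± 0.16 was not (0.0673). With the block AKR1C2 was called (0.0124; 7.01% of all genes without a filter), as were AKR1B10 at -0.81 (0.149 without the block, 0.0447 with it) and CBR1 at -0.31 (0.231 and 0.035; 16.3% of all genes tested). AKR1C3 was at background on 3 of the 5 rapamycin arrays, at least 1.47-fold below vehicle (adjusted p = 0.154, and 0.0126 with the block). HB4a rapamycin array 1, where AKR1B10 was 1.50 against 2.46 to 3.08 on the other 4, had the largest residual spread over all genes of any HB4a array. The summed basal markers lay at 9.40 to 10.03 with rapamycin, below the 10.3 to 10.7 of vehicle, with KRT5 lower by -1.01 ± 0.13, and their part in these values was not tested.

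With both drugs AKR1B10 rose over vehicle in HB4a, AKR1C1, AKR1C2 and AKR1C3 fell in C5.2, and no gene of the set was called in SKBR3. In HB4a, AKR1B10 stood at 4.46, 5.68, 4.48, 4.93 and 4.81, above every vehicle array by 1.54 ± 0.29 in the mean (2.92-fold, adjusted p = 6.38e-04; 9.21e-04 without a filter, where 4.65% of all genes rose). It was the only one of 5 genes called, where 17.4% of all genes were. Markers moved in the same HB4a groups, with no overlap. The summed luminal markers lay at 12.10 to 12.35 with both drugs and 12.52 to 12.78 with vehicle, and the basal markers at 9.28 to 9.75 and 10.3 to 10.7. Of the luminal markers 3 of 6 fell, KRT19 by 1.14 ± 0.16 on the log2 scale, and of the basal markers 1 of 3 tested, KRT5, by 1.58 ± 0.13. Their part in the result was not tested. The AKR1B10 difference from doxorubicin alone was -0.90 ± 0.29 (adjusted p = 0.105; 2.58% of all genes called) and from rapamycin alone 2.35 ± 0.29 (adjusted p = 1.35e-05; 8.84% called), the latter with an adjusted p of 1.84e-05 without a filter, where 2.04% of all genes were higher. In C5.2, AKR1B10 stood at 4.44, 4.42, 5.26, 4.83 and 4.95, a difference of -0.16 ± 0.25 from vehicle (adjusted p = 0.727) with overlapping groups. It was higher than with rapamycin alone by 1.24 ± 0.25 (adjusted p = 0.00366, and 0.0047 without a filter; 6.39% of all genes called), with no overlap. It was lower than with doxorubicin alone by -0.79 ± 0.25 (adjusted p = 0.0438), but that call failed without a filter (0.0821) and without doxorubicin array 3, 4 or 6 or any of arrays 1, 2, 4 and 6 of both drugs (up to 0.128).

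AKR1C1 in C5.2 with both drugs was 6.83, 6.86, 7.40, 6.75 and 6.69, close to rapamycin alone (difference -0.05 ± 0.17). Against vehicle the differences were -1.05 ± 0.17 for AKR1C1 (adjusted p = 2.86e-04), -0.98 ± 0.17 for AKR1C2 (adjusted p = 4.93e-04) and -1.55 ± 0.30 for AKR1C3 (adjusted p = 0.00119; 0.00158 without a filter). In all 3 genes no array of the pair reached the vehicle arrays. AKR1C3 stood at 3.63, 3.17, 4.83, 4.11 and 3.89, the lowest of its C5.2 groups; from rapamycin alone it differed by -0.60 ± 0.30 (adjusted p = 0.332, and 3.96e-04 with the block). CBR3 differed from rapamycin alone by 0.26 ± 0.09 (0.119, and 0.0124 with the block, under which 22.2% of all genes were called). Against doxorubicin alone, AKR1C1 (-1.02 ± 0.17), AKR1C2 (-0.95 ± 0.17), AKR1C3 (-1.13 ± 0.30) and CBR1 (-0.42 ± 0.11, adjusted p = 0.0162; 0.0515 without array 3 of both drugs) were called. The 3 falls of 8 against vehicle stand beside 21% of all genes called and 14.6% that fell, and the 5 of 8 against doxorubicin beside 13.5% and 11.8%. The C5.2 markers moved too. With both drugs the summed basal markers lay at 6.01 to 6.80, below the 7.01 to 8.17 of vehicle, and the luminal markers at 10.29 to 10.93, below 11.04 to 11.53. Of the luminal markers 3 of 6 fell (KRT19 by 1.87 ± 0.28 on the log2 scale), of the basal markers 1 of 2 tested (KRT5 by 1.94 ± 0.28), and of the mesenchymal markers 2 of 3. Their part in the falls of the AKR1C genes was not tested.

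In SKBR3 with both drugs AKR1C1 was 4.68, 4.55, 5.00, 4.81 and 4.87 and AKR1C2 4.75, 4.43, 4.97, 4.75 and 4.89, within or just above the vehicle arrays. The differences from vehicle were 0.31 ± 0.15 (adjusted p = 0.133) and 0.22 ± 0.17 (adjusted p = 0.347). In limma 0 of 6 genes were called, where 22% of all genes were, and 3 had an unadjusted p under 0.05. With the block AKR1C1 (0.0457), AKR7A2 at 0.21 (0.0575 without, 0.017 with) and CBR3 at -0.20 (0.133 without, 0.014 with) were called, beside 50.5% of all genes. Against doxorubicin alone AKR1C1 fell by 1.05 ± 0.15 on the log2 scale (adjusted p = 4.1e-05) and AKR1C2 by 1.10 ± 0.17 (adjusted p = 8.33e-05), with no overlap. The doxorubicin arrays, which alone passed the filter, are the high group here, and without a filter the adjusted p values were 6.16e-05 and 1.05e-04. Against rapamycin alone AKR1C1 was higher by 0.84 ± 0.15 (adjusted p = 0.00479) and AKR1C2 by 0.96 ± 0.17 (adjusted p = 0.00398), with 0.00499 and 0.00343 without a filter, where 0.253% of all genes were higher. Those 2 calls are among 33 of 5977 genes (0.552%) that differed between both drugs and rapamycin in SKBR3, all of them higher. The summed luminal markers in SKBR3 lay at 13.06 to 13.11 with both drugs, below the 13.15 to 13.28 of vehicle, and 1 of 5 tested fell; their part was not tested.

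Smaller differences between both drugs and doxorubicin in SKBR3 were called for AKR7A2 (0.26 ± 0.08, adjusted p = 0.0224) and CBR3 (-0.30 ± 0.10, adjusted p = 0.033). That comparison called 22% of all genes. The AKR7A2 call failed without array 3 or 6 of both drugs or doxorubicin array 6 (up to 0.0691), and the CBR3 call without arrays 2, 4 or 6 of both drugs or doxorubicin arrays 1 or 3 (up to 0.094). Neither held without a filter (0.0679 and 0.0847). The AKR7A2 call failed under 5 of 12 other settings, the mean of all probe sets among them (up to 0.185). On its other probe set, 202139_at, AKR7A2 averaged 7.30 with doxorubicin and 7.35 with both drugs in SKBR3. Without a filter AKR1C3 was called (-0.57 ± 0.18, adjusted p = 0.0475; 4.78% of all genes fell there), with all 5 arrays of both drugs at background and a bound of at least 1.15-fold; 8 of 10 leave-outs ended that call (up to 0.124). AKR1B10 differed by -0.38 ± 0.14 without a filter (0.103, and 0.00915 with the block, which called 21.5% of all genes). The 5 comparisons within a line share groups of arrays, so their values are not independent of each other.

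The differences between lines in these responses were tested in their own right, in fits of 40 arrays, and 15 of 69 tested were called. The share of all genes called ran from 0% to 12.3% over these comparisons. AKR1C1 and AKR1C2 count separately here, though their probe sets cannot separate them. The AKR1B10 response to doxorubicin was smaller in SKBR3 than in HB4a by -1.82 ± 0.32 (adjusted p = 3.18e-04; 3.28e-04 without a filter), where 3.87% of all genes were called. It was also smaller in C5.2 than in HB4a by -1.82 ± 0.39 (adjusted p = 0.0413), 1 of only 7 genes called of 6962 (0.101%). That call failed without any 1 of 15 of 20 arrays (adjusted p up to 0.134) after array centring (0.0682) and in a fit of only the arrays compared (0.0693). The responses of AKR1C1 and AKR1C2 to doxorubicin were larger in SKBR3 than in HB4a, by 1.17 ± 0.23 (adjusted p = 9.34e-04) and 1.24 ± 0.23 (adjusted p = 5.6e-04). Only the 5 SKBR3 doxorubicin arrays, the group that makes this response high, carried both genes past the filter in that fit. Without a filter the adjusted p values were 0.00124 and 7.02e-04, where 0.526% of all genes had a larger response in SKBR3. Against C5.2 they were larger by 1.39 ± 0.23 (adjusted p = 1.41e-04) and 1.35 ± 0.24 (adjusted p = 4.7e-04), where 1.47% of all genes were called. The doxorubicin response of AKR1C3 differed between SKBR3 and C5.2 by 1.04 (adjusted p = 0.207, and 8.4e-05 with the block, which called 8.23% of all genes), with SKBR3 vehicle at background. That of AKR7A2 differed between SKBR3 and HB4a by -0.33 (0.261, and 0.0351 with the block; 15.9% of all genes). On its other probe set, 202139_at, AKR7A2 averaged 7.12 with vehicle and 7.30 with doxorubicin in SKBR3, and 7.21 and 7.44 in HB4a.

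The rapamycin response of AKR1B10 differed between SKBR3 and C5.2 by 1.26 ± 0.29 (adjusted p = 0.00583), where 6.23% of all genes were called. That of CBR1 differed by 0.47 ± 0.14 (adjusted p = 0.0372), but failed without any 1 of 10 of 20 arrays (up to 0.0929) and under 5 of 12 other settings (up to 0.0867). With the block AKR1C1 (0.46, 0.225 without and 0.0131 with), AKR1C3 (0.99, 0.1 and 5.6e-05) and AKR7A2 (0.34, 0.0508 and 0.00368) were called there as well, beside 32.4% of all genes. AKR1C3 was at background in SKBR3 on 4 of 5 vehicle and 5 of 5 rapamycin arrays, where no fall could be seen, so its value restates the fall in C5.2. Between C5.2 and HB4a 0 of 8 genes and 0 of 6962 genes differed in their rapamycin response in limma without the block; AKR7A2 was the 1 gene of the set with an unadjusted p under 0.05. Between SKBR3 and HB4a 0 of 7 genes of the set were called (5.03% of all genes); with the block CBR1 was (0.50, 0.0542 without and 0.0047 with; 22.5% of all genes), and AKR1C3 in the fit without a filter (0.90, 0.198 and 0.0155; 10.5% of all genes).

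The response to both drugs was smaller for AKR1B10 in SKBR3 than in HB4a, by -1.30 ± 0.32 (adjusted p = 0.00552, and 0.00805 without a filter; 9.82% of all genes called). In C5.2 it was smaller than in HB4a by -1.71 ± 0.39 (adjusted p = 0.0301; 0.373% of all genes called), and failed without any 1 of 9 of 20 arrays (up to 0.0724). Between SKBR3 and C5.2 5 of 8 genes differed, where 12.3% of all genes were called. They were AKR1C1 (1.36 ± 0.23, adjusted p = 5.61e-05), AKR1C2 (1.20 ± 0.24, adjusted p = 5.4e-04), AKR1C3 (1.60 ± 0.36, adjusted p = 0.00244), AKR7A2 (0.38 ± 0.11, adjusted p = 0.0146) and CBR1 (0.42 ± 0.14, adjusted p = 0.0452). AKR1C3 was at background in SKBR3 on 4 of 5 vehicle arrays and all 5 arrays of both drugs, where no fall could be seen, so its 1.60 restates the fall in C5.2. The AKR7A2 call failed with all 60 arrays in 1 fit (0.0611). The CBR1 call failed without any 1 of 13 of 20 arrays (up to 0.098), and under 4 of 12 other settings (up to 0.0917).

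The AKR1C probe sets cannot separate AKR1C1 from AKR1C2. Both genes' bright probe sets carry the suffix that Affymetrix gives to sets that may hybridise with other transcripts, and after subtraction of line means their levels correlated at r = 0.97 over the 60 arrays. The other bright sets gave like values. In C5.2 rapamycin the AKR1C1 set 216594_x_at differed by -0.97 ± 0.16 and the AKR1C2 set 211653_x_at by -0.88 ± 0.19. In SKBR3 doxorubicin, in a fit of probe sets without a filter, they rose by 0.95 (adjusted p = 0.00358) and 1.50 (adjusted p = 2.27e-04). With rapamycin in SKBR3 they differed by -0.39 and -0.56 and were not called (adjusted p = 0.243 and 0.169). The SKBR3 excess over HB4a in AKR1C2, 0.51 on the brightest set, was 0.00 on 211653_x_at (adjusted p = 0.986). Of the 17 probe sets 4 (3 of AKR1C1, 1 of AKR1C2) were at background on most arrays. A further set, named for both AKR1C1 and AKR1C2, was left out of both genes. AKR1C3 had the single set 209160_at.

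**Figure D3:**
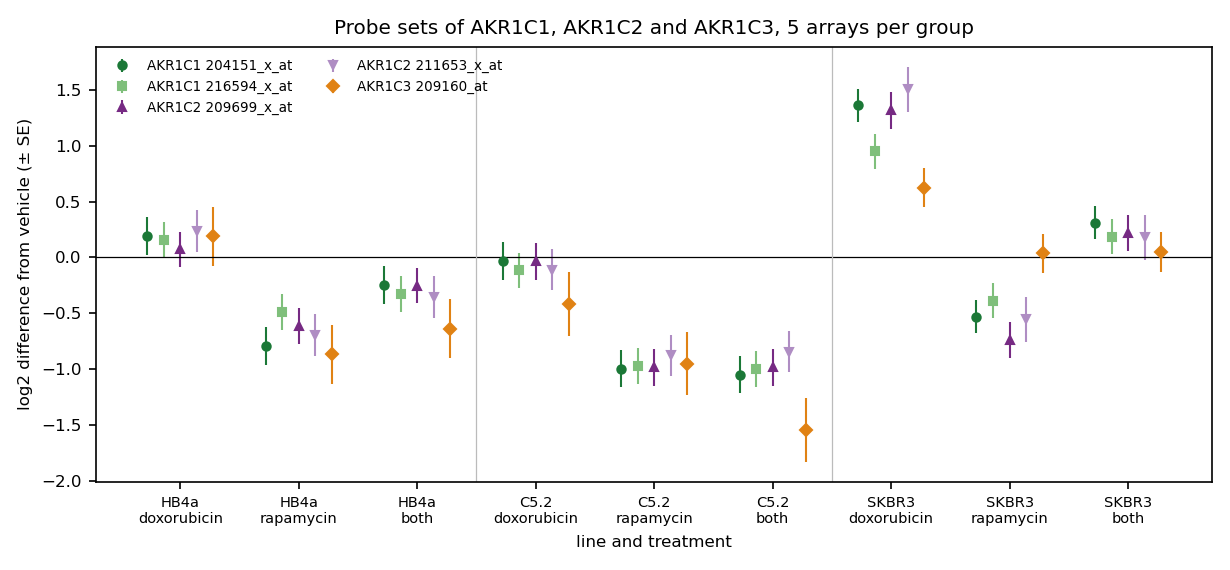
Log2 difference from vehicle with its SE (y axis) for the 5 bright probe sets of AKR1C1, AKR1C2 and AKR1C3 under each line and treatment (x axis), 5 arrays per group, fit without a filter. The 4 sets of AKR1C1 and AKR1C2 lie between -0.84 and -1.05 in C5.2 with either rapamycin group and between 0.95 and 1.50 in SKBR3 doxorubicin; AKR1C3 lies lower in C5.2 with both drugs, at -1.55.

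NQO1 had 3 probe sets, and none of its differences from vehicle was called on the brightest, 210519_s_at. Those differences ran from -0.29 ± 0.20 in HB4a rapamycin to 0.31 ± 0.20 in HB4a doxorubicin. Across all 12 groups its means lay between 8.13 and 9.82. Its C5.2 excess over HB4a was 1.41 on that set, 1.46 ± 0.20 on 201467_s_at and 2.42 ± 0.18 on 201468_s_at, all called. Its SKBR3 excess over HB4a was 1.46 ± 0.17 on 201468_s_at (adjusted p = 6.3e-10) and 0.38 ± 0.20 on 201467_s_at (adjusted p = 0.0786), so the sets disagreed on its size. CBR1, CBR3 and AKR7A2 had group means of 6.26 to 7.41, 6.18 to 6.97 and 7.21 to 7.92.

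The other NRF2 targets, a list of 25 genes of which 23 were measured, are given by counts beside the share of all genes; no test set 1 drug against the other over the list. With rapamycin 4 of 17 tested fell in HB4a and 0 rose, 6 of 20 fell and 1 rose in C5.2, and 5 of 16 fell and 1 rose in SKBR3, beside 1.1%, 14.6% and 10.8% of all genes that fell and 2.08%, 2.83% and 7.48% that rose. TRIM16, a ubiquitin ligase, fell in HB4a (-0.88 ± 0.21) and C5.2 (-0.57 ± 0.08), PIR, an iron protein, in HB4a (-0.74 ± 0.17) and SKBR3 (-0.60 ± 0.15), and IDH1, an NADPH source, in C5.2 (-0.60 ± 0.17). BLVRB, biliverdin reductase B, fell in SKBR3 (-0.52 ± 0.09). The drug exporter ABCC3 rose in C5.2 (1.05 ± 0.18) and ferritin light chain FTL in SKBR3 (0.44 ± 0.10). The list's medians were -0.21, -0.22 and -0.22 in HB4a, C5.2 and SKBR3, beside 0.01, -0.08 and -0.03 over all genes.

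With doxorubicin 3 of 17 NRF2 targets rose in HB4a and 1 fell, beside 8.66% of all genes that rose and 2.77% that fell. In limma 0 of 20 were called in C5.2 and 0 of 16 in SKBR3 (5 and 2 at an unadjusted p under 0.05), where 3.26% and 0.837% of all genes were, so few calls in a list of that size are the background there. The heme oxygenase HMOX1 (0.64 ± 0.16) and PIR (0.60 ± 0.17) rose in HB4a, and GCLC, of glutathione synthesis, fell (-0.58 ± 0.15). With both drugs 6 of 17 fell in HB4a (TRIM16 -1.17 ± 0.21, IDH1 -0.95 ± 0.16) and 0 rose. In C5.2 7 of 20 fell (IDH1 -0.90 ± 0.17, UGDH -0.89 ± 0.23) and ABCC3 rose (0.58 ± 0.18), and in SKBR3 7 of 16 fell (PIR -0.68 ± 0.15, ME1 -0.56 ± 0.13) and FTL rose (0.58 ± 0.10). Of all genes 6.49%, 14.6% and 13.6% fell with both drugs in HB4a, C5.2 and SKBR3, and 10.9%, 6.42% and 8.35% rose. In vehicle 13 of 20 were higher in C5.2 than in HB4a and 0 lower, with a median of 0.60 beside 0.10 over all genes and 29.3% of all genes higher. The NRF2 regulators were 10 genes with 9 measured. Of 8 tested in HB4a, 1 rose with rapamycin, 1 with doxorubicin and 2 with both drugs, and 0 fell. These stand beside 3.18%, 11.4% and 17.4% of all genes called. The small MAF protein MAFF rose with rapamycin in HB4a (1.37 ± 0.14) and C5.2 (1.15 ± 0.10). KEAP1, the inhibitor of NRF2, fell in C5.2 with rapamycin (-0.28). MAFF also rose with doxorubicin in HB4a (0.60 ± 0.14) and with both drugs in all 3 lines (1.73, 1.28 and 1.01). With both drugs MAFG rose in HB4a (0.46) and RBX1 fell in C5.2 (-0.18), while SQSTM1 rose (0.56) and CUL3 fell (-0.60) in SKBR3. The regulator calls in C5.2 and SKBR3 stand beside 17.4% to 22% of all genes called with rapamycin or both drugs there. Nothing particular to the list is read from them.

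**Figure D4:**
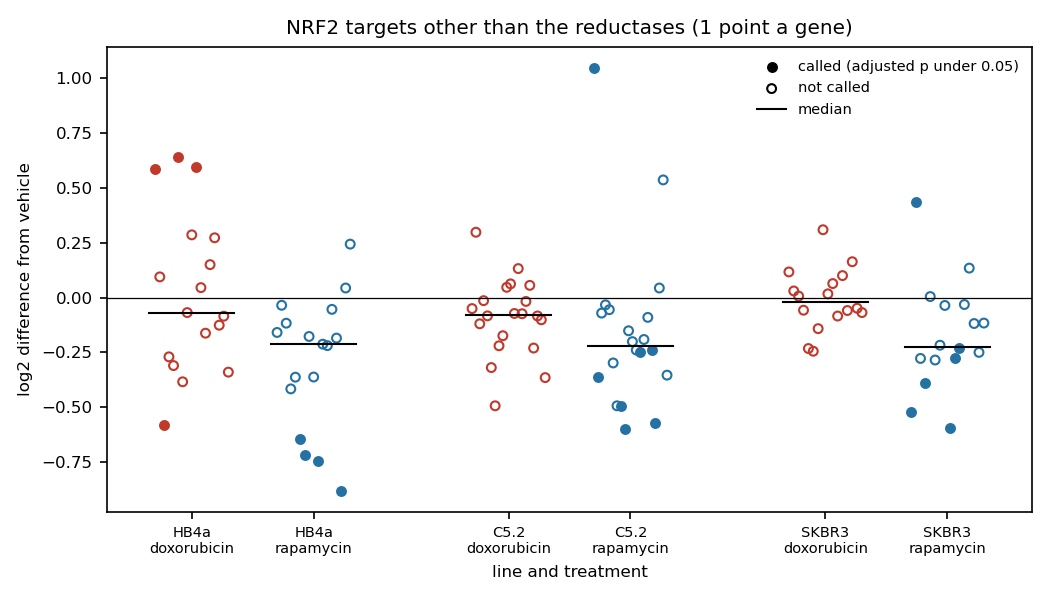
Log2 difference from vehicle (y axis) of the tested NRF2 targets outside the reductases, 1 point per gene, with doxorubicin (red) and rapamycin (blue) in the 3 lines (x axis); filled points were called and the bar is the median. The rapamycin medians lie at -0.21 to -0.22 and the doxorubicin medians at -0.02 to -0.08.

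Other reductases of the same substrates were listed too. Of 13 quinone and single-electron reductases, 12 measured, 4 of 9 rose with doxorubicin in HB4a and 0 fell, led by the xanthine dehydrogenase XDH (1.74 ± 0.24) and CYB5R2 (0.59 ± 0.16), beside 8.66% of all genes that rose. With rapamycin 3 of 7 fell in C5.2 (NQO2 -0.56 ± 0.07, AIFM2 -0.37 ± 0.10) and 2 of 8 in SKBR3 (NQO2 -0.49 ± 0.10, RTN4IP1 -0.45 ± 0.14), beside 14.6% and 10.8% of all genes that fell. With both drugs 2 of 9 rose in HB4a (XDH 1.64, CYB5R2 0.59), 1 of 7 fell in C5.2 (NQO2 -0.53) and 3 of 8 fell in SKBR3 (CRYZ -0.90, RTN4IP1 -0.51), where 17.4%, 21% and 22% of all genes were called. Of 19 short-chain carbonyl reductases, 18 measured and 12 tested in each line, DHRS2 alone rose with doxorubicin in HB4a (1.11 ± 0.26). DHRS2 fell with rapamycin in C5.2 (-0.93 ± 0.27), as did HSD17B10 (-0.51 ± 0.12), and in SKBR3 3 of 12 fell (DHRS13 -0.44, DHRS2 -0.43) and 2 rose (DHRS3 0.63, DHRS7 0.26). With both drugs 2 rose and 1 fell in HB4a (DHRS2 0.96, DHRS7B 0.53, DHRS3 -0.61), 1 rose and 1 fell in C5.2 (DHRS7 0.49, HSD17B10 -0.40), and 1 rose and 4 fell in SKBR3 (DHRS3 0.99, DCXR -0.75, HSD17B12 -0.60). Several of these counts with rapamycin or both drugs (1 of 7, 2 of 8, 2 of 12) lie near the 17.4% to 22% of all genes called in those C5.2 and SKBR3 comparisons, and nothing particular to the lists is read from them. No other member of the aldo-keto reductase family, of 9 listed and 7 measured, was called in a treatment; 0 passed the filter in HB4a and C5.2 and 1 in SKBR3.

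Glutathione transferases, 17 genes with 15 measured, conjugate reactive products. With doxorubicin 4 of 11 rose in HB4a (GSTM3 1.30 ± 0.21, GSTZ1 0.71 ± 0.17) and 3 of 11 in C5.2 (GSTM3 0.54 ± 0.12, GSTZ1 0.46 ± 0.11), with 0 falls, beside 8.66% and 2.84% of all genes that rose. In SKBR3 0 of 9 were called in limma, and 0 had an unadjusted p under 0.05, where 0.837% of all genes were called. With rapamycin GSTP1 fell in C5.2 (-0.23) and GSTK1 rose in SKBR3 (0.30), each the only call of the list where 17.4% and 18.3% of all genes were called. With both drugs 5 rose and 1 fell of 11 in HB4a (GSTM3 1.54, GSTZ1 0.82, MGST1 -0.43), beside 10.9% of all genes that rose and 6.49% that fell. In C5.2 with both drugs 2 rose and 2 fell (GSTZ1 0.68, GSTM3 0.56, GSTA4 -0.48, MGST1 -0.41), and in SKBR3 2 rose and 1 fell of 9 (GSTZ1 0.39, GSTK1 0.31, MGST2 -0.25), beside 21% and 22% of all genes called.

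The genes whose levels followed each changed reductase most closely over the 60 arrays, after subtraction of line means and among 7714 genes, were listed as a description. The arrays share 12 groups and the experiments, so the points are not independent. For AKR1B10 they were IP6K3 (r = 0.92), PLAT (r = 0.88) and NEFL (r = 0.86). AKR1C1 was followed by AKR1C2 (r = 0.97), HMOX1 (r = 0.81) and IKBKE (r = 0.79), and AKR1C2 by AKR1C1, IKBKE (r = 0.79) and GINS3 (r = 0.78). AKR1C3 was followed by ASB9 (r = 0.77), AKR1C1 (r = 0.72) and TRIM16 (r = 0.70), and CBR3 by AIFM2 (r = 0.79), PSMB7 (r = 0.78) and UBE2A (r = 0.75). Within the set AKR1B10 correlated with AKR1C1 at r = 0.54.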

How the data were processed

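RNA of 3 cell lines under 4 conditions was measured on 60 arrays, 5 independent experiments per group. The deposited values are log2 probe set levels from RMA, per the submitters' processing notes. The RMA version, and whether all arrays were summarised together, are not given in the sources used here; the log base is taken from the values, which span -0.6 to 13.08. In titles the vehicle carries the code DRC, which the treatment text gives to the drug pair; the source names were followed, also for nM where that text has hM. The number of arrays limits the precision.

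The members and gene lists were chosen with earlier results of these data known. Of 54675 probe sets, 41091 carried 1 symbol in the platform annotation; 1801 with several, 11777 unnamed and 6 control sets were left out. limma 3.58.1 (R 4.3.3) gave the tests, as a linear model with trended empirical Bayes moderation and Benjamini-Hochberg adjustment over all genes tested. Each fit took the 20 arrays of a line or the 40 arrays of a pair of lines. Bounds use the array medians where at least 2 arrays of a group were at background. The text names all members, CDKN1A, ERBB2, up to 2 called genes per direction of each list and treatment, and the 3 genes most like each member called in a treatment. The experiment number paired arrays in SKBR3 (lowest correlation of residuals 0.238), in HB4a except with the drug pair (lowest there -0.569) and in C5.2 except for both drugs against vehicle (lowest -0.100), by a limit of 0.1. Promoters were read with Biopython 1.88; other steps used Python 3.11.15, pandas 2.3.3, numpy 2.4.6, matplotlib 3.10.9 and version 1.17.8 of data.table. Alternatives were the filter, the probe set rule, array centring, quantile normalization, trend, array weights, the replicate block, the arrays in the fit and each array left out. Another 3 were chosen after seeing the data: a lower filter at log2 3, the removal of outlying arrays, and a random block between lines. The method was tested on simulated data.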

Additional observations from a re-analysis of the deposited data

Results flagged for a closer look

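Among 96 groups of 5 arrays (8 genes in 12 groups), 9 had an array set apart from the other 4, where chance gives about 1 in 20. In C5.2, experiment 3 was highest for AKR1C1 with doxorubicin (8.48, next 7.90; the gap was 0.717 of the range), for AKR1C1 with both drugs (7.40, next 6.86; 0.756) and for AKR1C2 with both drugs (6.72, next 6.17; 0.829). In C5.2 vehicle, experiment 2 was highest for CBR3 (6.66, next 6.41; 0.741) and AKR7A2 (7.99, next 7.72; 0.753), and experiment 1 was lowest for CBR1 (6.46, next 6.56; 0.715). Experiment 1 was highest for AKR1B10 in SKBR3 with both drugs (4.43, next 4.06; 0.81) and for NQO1 in SKBR3 vehicle (9.02, next 8.80; 0.727), and lowest for CBR1 in HB4a with doxorubicin (6.98, next 7.39; 0.752).

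The response to a treatment differed between a pair of lines, by the test of the difference itself, in 15 of 69 tests. The share of all genes called ran from 0% to 12.3% over these comparisons. For AKR1B10 the differences were -1.82 (doxorubicin, C5.2 minus HB4a), -1.71 (both drugs, C5.2 minus HB4a), -1.82 (doxorubicin, SKBR3 minus HB4a), -1.30 (both drugs, SKBR3 minus HB4a) and 1.26 (rapamycin, SKBR3 minus C5.2). For AKR1C1 they were 1.17 (doxorubicin, SKBR3 minus HB4a), and 1.39 with doxorubicin and 1.36 with both drugs (SKBR3 minus C5.2). For AKR1C2 they were 1.24, 1.35 and 1.20 in the same order. With both drugs, SKBR3 minus C5.2, the values were 1.60 for AKR1C3, 0.38 for AKR7A2 and 0.42 for CBR1, and with rapamycin 0.47 for CBR1. AKR1C3 was at background in SKBR3 on 4 of 5 vehicle arrays and all 5 arrays of both drugs, so its value restates the fall in C5.2.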

How the results depend on the processing

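Of 65 called differences of members, 0 reversed under any alternative; the 1 reversal was a background probe set of AKR1C1 (217626_at), 0.063 with rapamycin in HB4a. Counts of members called that moved by over 1.5 times follow as the value under each setting, main value in brackets; D, R and DR are doxorubicin, rapamycin and both drugs against vehicle unless another group is named. With all 60 arrays in 1 fit: DR against D 2 (0) in HB4a and 2 (4) in SKBR3, DR against R in HB4a 2 (1), D in HB4a 2 (1), R in HB4a 3 (0), and response differences 3 (5) for DR and 1 (2) for R between SKBR3 and C5.2 and 1 (0) for R between SKBR3 and HB4a. Array centring gave response differences of 0 (1) for D between C5.2 and HB4a and 1 (2) for R between SKBR3 and C5.2. Array weights gave DR in SKBR3 3 (0), DR against D in HB4a 2 (0), DR against R in C5.2 2 (1), D in C5.2 1 (0), R 7 (4) in C5.2 and 1 (0) in HB4a, and response differences 4 (1) for DR and 1 (0) for R between C5.2 and HB4a, 3 (1) and 1 (0) between SKBR3 and HB4a, and 4 (2) for R between SKBR3 and C5.2. A filter at log2 3 gave R in HB4a 2 (0), and no filter 1 (0), with 1 (2) for the R response between SKBR3 and C5.2. A filter at log2 7, which tests fewer genes, gave 5 (8) for SKBR3 against C5.2, 3 (5) against HB4a, DR 0 (1) in HB4a and 1 (0) in SKBR3, DR against D 2 (5) in C5.2 and 1 (4) in SKBR3, DR against R 0 (1) in C5.2, 0 (1) in HB4a and 0 (2) in SKBR3, D 0 (1) in HB4a and 0 (2) in SKBR3, R 2 (4) in C5.2 and 0 (3) in SKBR3, and response differences 0 (1) for DR and D between C5.2 and HB4a, 0 (1) for DR, 0 (3) for D and 1 (0) for R between SKBR3 and HB4a. The mean of all probe sets, background sets included, took AKR1C1 and AKR1C2 below the filter, so these counts leave them untested. Of 40 calls it could be run on it ended 2. It gave DR against D 3 (5) in C5.2 and 1 (4) in SKBR3, DR against R 0 (2), D 0 (2) and R 1 (3) in SKBR3, R 2 (4) in C5.2, and response differences 3 (5) for DR and 0 (2) for D between SKBR3 and C5.2, 1 (3) for D and 1 (0) for R between SKBR3 and HB4a. With only the arrays compared, which has fewer samples: 3 (5) for SKBR3 against HB4a, DR in HB4a 0 (1), DR against D 2 (5) in C5.2, 1 (0) in HB4a and 2 (4) in SKBR3, DR against R 0 (1) in C5.2 and HB4a and 0 (2) in SKBR3, R in SKBR3 0 (3), and response differences 0 (1) for DR and D between C5.2 and HB4a, 0 (1) for DR between SKBR3 and HB4a and 0 (2) for R between SKBR3 and C5.2. Quantile normalization gave DR in SKBR3 1 (0) and R response differences of 1 (2) between SKBR3 and C5.2 and 1 (0) between SKBR3 and HB4a. The replicate block gave DR 5 (3) in C5.2 and 3 (0) in SKBR3, DR against D in HB4a 2 (0), DR against R in C5.2 3 (1), D 2 (0) in C5.2 and 2 (1) in HB4a, R 7 (4) in C5.2 and 2 (0) in HB4a, and response differences 5 (1) for DR between C5.2 and HB4a, 3 (1) for DR and 1 (0) for R between SKBR3 and HB4a and 5 (2) for R between SKBR3 and C5.2; of 45 calls it could be run on it ended none, and the pairing did not hold for DR against vehicle in HB4a and C5.2 or DR against D in HB4a. Other causes were not tested.

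Leaving out 1 array in turn (leave-one-out), counts of members ran from 6 to 6 for C5.2 against HB4a, 3 to 5 for SKBR3 against HB4a and 8 to 8 for SKBR3 against C5.2. For D they ran from 1 to 1 in HB4a, 0 to 0 in C5.2 and 0 to 2 in SKBR3, where leaving out a doxorubicin array drops AKR1C1 and AKR1C2 below the filter. For R they ran from 0 to 0, 3 to 4 and 2 to 3, for DR from 1 to 1, 3 to 4 and 0 to 1, for DR against D from 0 to 1, 4 to 5 and 1 to 4, and for DR against R from 1 to 1, 1 to 1 and 2 to 2, in the same order. Response differences ran from 0 to 1 (D), 0 to 0 (R) and 0 to 1 (DR) between C5.2 and HB4a, 1 to 3, 0 to 1 and 1 to 1 between SKBR3 and HB4a, and 2 to 2, 1 to 3 and 4 to 5 between SKBR3 and C5.2. Signal over background limits AKR1C3 in HB4a and SKBR3.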
